A study of Mus musculus with 2 samples.

Results

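The genes described here encode 34 proteins of the lysosome: 12 proteases, 8 enzymes that remove sugars or sulfate, 6 enzymes and carriers of lipids, 6 membrane proteins and 2 transcription factors of lysosomal genes. They were taken from a list of gene symbols by role and not by a cut on measured values, though earlier results of these data were known when the list was made. All 34 were among the 19935 genes that the array annotation gives as the only gene of a probe set, the group of probes read as 1 value. Where a gene had several probe sets, the brightest by mean log2 intensity stood for it, but 33 of the 34 members had only 1. The samples were dendritic cells (DCs), the white blood cells that show antigen to T cells. They were sorted from the spleen of C57BL/6 mice, 8 weeks old and wild type, and cultured with IL-27, a cytokine of the IL-12 family, in 1 sample and with vehicle in the other. The labels give the duration of treatment only as "ON", and the number of mice or cultures behind each sample is not stated in them. Each sample was read on 1 array, so no difference below has a replicate check, and no test, SD or standard error can be given.

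Lysosomes are acidic organelles in which hydrolases break down proteins, glycans and lipids that arrive by endocytosis, phagocytosis or autophagy. A proton pump, the V-ATPase, acidifies them, and most soluble hydrolases are carried to them by mannose 6-phosphate receptors. In DCs their proteases trim antigens and cleave the invariant chain so that MHC class II molecules can be loaded with peptide, and DCs are known for holding lysosomal proteolysis lower than macrophages do. TFEB and MITF belong to a family of transcription factors that bind the letters CACGTG in promoters of lysosomal genes.

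The promoters of 5 members are shown as examples with and without that motif. As all 5 genes had lower values with IL-27, these promoters cannot show whether members with and without it differed in direction. Each runs from 250 bases before to 50 bases after the start of the gene and is written 5′ to 3′ on the gene's strand, as given by RefSeq for GRCm38.p6. Capitals mark CACGTG. The first 3 hold it, and the last 2 belong to members with the most negative differences below.
Glb1 (chr9:114400828-114401127, plus strand): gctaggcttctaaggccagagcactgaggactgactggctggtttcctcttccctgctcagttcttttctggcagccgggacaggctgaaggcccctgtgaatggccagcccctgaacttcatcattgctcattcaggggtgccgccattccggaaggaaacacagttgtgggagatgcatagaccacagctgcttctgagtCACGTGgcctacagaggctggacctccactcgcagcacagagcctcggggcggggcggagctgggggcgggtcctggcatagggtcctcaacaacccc
Naglu (chr11:101069844-101070143, plus strand): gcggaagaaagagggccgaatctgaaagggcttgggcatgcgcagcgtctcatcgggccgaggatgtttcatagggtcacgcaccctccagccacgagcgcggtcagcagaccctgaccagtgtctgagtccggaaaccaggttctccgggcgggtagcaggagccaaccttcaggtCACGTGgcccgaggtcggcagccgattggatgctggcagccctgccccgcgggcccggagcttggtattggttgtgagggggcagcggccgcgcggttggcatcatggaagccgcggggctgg
Mcoln1 (chr8:3500269-3500568, plus strand): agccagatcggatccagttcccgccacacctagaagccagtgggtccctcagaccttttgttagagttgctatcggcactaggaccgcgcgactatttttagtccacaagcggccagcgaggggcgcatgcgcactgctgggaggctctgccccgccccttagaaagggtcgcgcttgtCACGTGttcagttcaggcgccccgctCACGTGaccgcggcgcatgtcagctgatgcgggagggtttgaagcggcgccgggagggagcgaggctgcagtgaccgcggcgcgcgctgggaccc
Smpd1 (chr7:105554110-105554409, plus strand): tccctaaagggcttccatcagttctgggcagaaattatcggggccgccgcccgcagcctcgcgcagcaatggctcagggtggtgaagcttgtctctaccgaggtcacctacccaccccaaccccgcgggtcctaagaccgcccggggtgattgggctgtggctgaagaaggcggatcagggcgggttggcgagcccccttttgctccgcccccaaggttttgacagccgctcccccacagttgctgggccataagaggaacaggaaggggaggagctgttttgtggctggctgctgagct
Ctso (chr3:81932351-81932650, plus strand): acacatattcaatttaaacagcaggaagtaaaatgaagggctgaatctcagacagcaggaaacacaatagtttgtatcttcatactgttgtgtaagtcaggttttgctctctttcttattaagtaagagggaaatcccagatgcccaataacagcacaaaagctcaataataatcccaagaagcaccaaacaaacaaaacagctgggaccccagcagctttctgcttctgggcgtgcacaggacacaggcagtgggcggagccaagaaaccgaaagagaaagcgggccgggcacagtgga

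In this window 30 of the 34 members had a RefSeq promoter, and those of Asah1, Ctsb, Ctsh and Galns are not shown or searched. The 30 genes had 37 promoters, of which 10, each of another gene, held CACGTG, a motif that reads the same on both strands. This is 27.0% of the members' promoters, against 7.15% of all 32851 promoters of the table. The longer motif GTCACGTG, searched on both strands and always holding CACGTG within it, was in 18.9% of the members' promoters, against 2.25% of all. The genes with CACGTG were Ctsa, Ctsd, Ctsf, Ctsl, Gaa, Glb1, Lamp1, Lgmn, Mcoln1 and Naglu. In Glb1 it lay from base -48 to -43 before the start, in Naglu from -73 to -68, and in Mcoln1 from -71 to -66 and again from -45 to -40. Lamp1 had 4 copies in its window. A match describes these letters and does not show that a factor binds there.

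The 34 members were mostly somewhat dimmer on the IL-27 array. The log2 difference, IL-27 minus vehicle, was below 0 for 32 members, and its median was -0.71. Of all genes 46.6% had a difference below 0, with a median of 0.04, and of all genes at the level minimum defined next 70.9%. A gene was called lower or higher when it differed at least 2-fold and its brighter value reached an intensity of 96.2, the median of all probe set values (the level minimum). By this size rule 5 of the 33 members at that level were lower, 0 were higher and 28 were neither. That is 15.2% lower, close to the 13.2% lower among all 11140 genes at that level, where 1.52% were higher. A share this near the background is no result about lysosomal genes. At a smaller size of 1.5-fold, 21 of the 33 were lower and 0 higher, against 33.7% lower of all genes at that level. The quartiles of the members' differences were -0.81 and -0.37, and those of all genes at that level -0.73 and 0.09, around a median of -0.34.

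**Figure D1:**
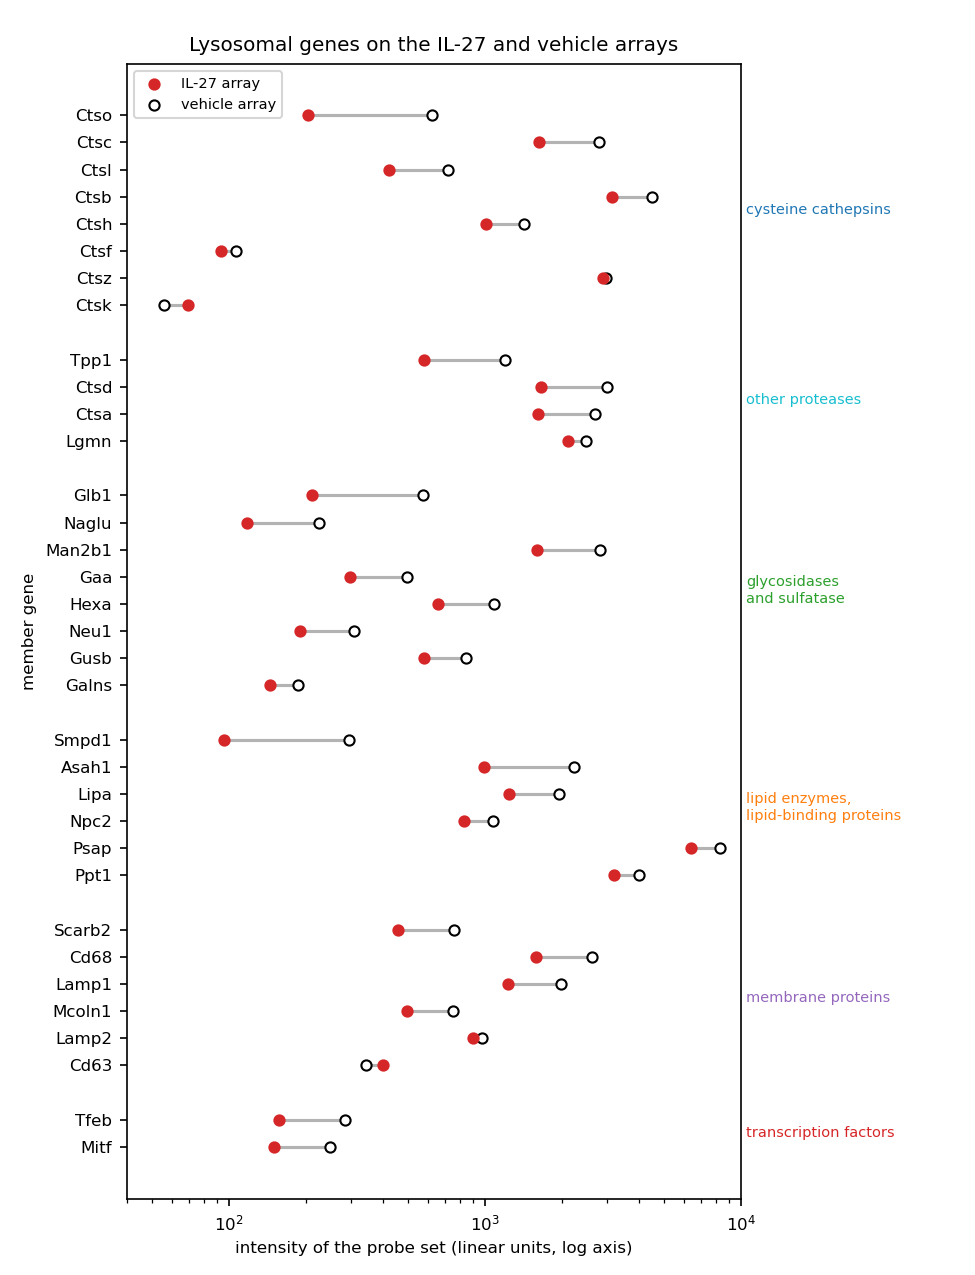
Intensity of each member's probe set on the IL-27 array (filled) and the vehicle array (open), 1 array each, on a log axis, grouped by role and ordered within each role by the difference. The IL-27 point lies left of the vehicle point for 32 of 34 genes, with Ctsk and Cd63 the exceptions. Positions of different genes are not comparable, since probe sets differ in brightness.

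The 2 arrays differed across the whole range of levels, which bears on every value here. The median intensity was 98.9 on the IL-27 array and 92.4 on the vehicle array, and the 75th percentile 215 and 267. In 20 bins of level, the median difference of genes ran from 0.24 at an intensity near 59.9 to -0.57 near 263 and was -0.26 in the brightest bin. Each member was therefore also set beside the median of the 1000 genes nearest to it in mean level. Of the 34 members, 28 lay below that median, as did 50.2% of all genes, and 13 lay below the lower quartile of those genes, as did 25.1% of all genes. Cd63 alone lay above the upper quartile. Among the nearest genes of the 33 members at the level minimum, 13.8% were lower by the size rule and 1.91% higher. With the dependence on level removed by a lowess curve, the members' median was -0.33 and 30 of 34 were below 0, against 50.5% of all genes. On that scale 2 of 33 members, Ctso and Smpd1, were 2-fold lower by their measured values, against 5.33% of genes at the level minimum. Dim signal differed as well. The 1027 olfactory receptor genes, whose expression is not expected here, had a median of 59.0 on the IL-27 array and 40.5 on the vehicle array, and 1016 of them had a difference above 0. Their 95th percentiles, 129 and 77.3, are used below as the limit under which a signal cannot be told from such genes. At or below it were 4 members on the IL-27 array and 1, Ctsk, on the vehicle array. Smpd1 was among the 4, and with its IL-27 value raised to the limit its difference was -1.19 as deposited. With the trend at its measured level removed, that difference was -0.83, short of 2-fold. Counts by the size rule use measured values, so a gene dim on the IL-27 array can count as lower while its bound is under 2-fold.

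**Figure D2:**
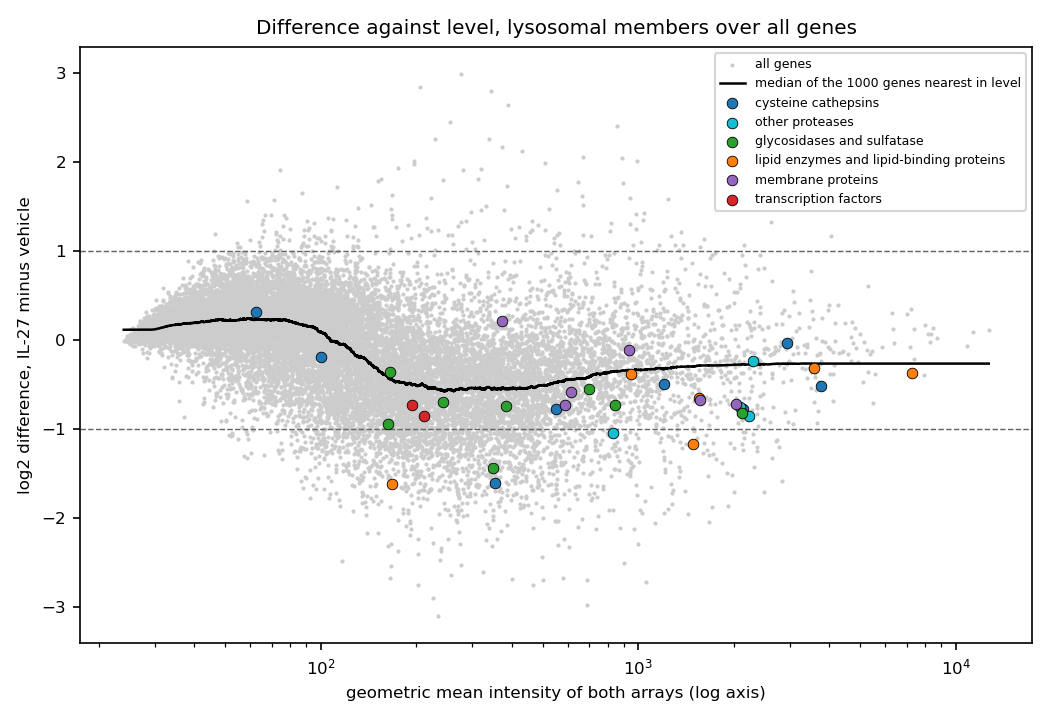
Log2 difference (IL-27 minus vehicle) against the geometric mean intensity of both arrays on a log axis, for all 19935 genes (grey) and the 34 members (coloured by role). The black line is the median of the 1000 genes nearest in level, and dashed lines mark 2-fold. Most members lie below the line, 28 of 34, and 5 lie past the lower dashed line.

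Markers of cell types were read as well, and by median those of macrophages and monocytes differed most between the arrays. Of 16 measured macrophage and monocyte markers, cells with many lysosomes, 14 were lower by the size rule and 0 higher, with a median of -1.58. All genes at the level minimum had 13.2% lower and 1.52% higher. With the level trend removed 12 of the 16 markers were 2-fold lower, against 5.33% of all genes at that level, and their median was -1.21. The summed intensity of the 16 was 15404 on the IL-27 array and 38642 on the vehicle array. Cd163 (88.1 with IL-27, 465 with vehicle) and Fcgr1 (119 and 372) did not exceed the olfactory limit with IL-27, and Lyz2 (3119 and 4163) differed least. Of 15 DC markers 14 reached the level minimum, of which 6 were lower and 0 higher, and the median of the 15 was -0.88. With the level trend removed 4 of the 14 were 2-fold lower and the median of the 15 was -0.69. The DC markers did not move as 1 group. Cd209a had 410 with IL-27 and 2710 with vehicle, Kmo 253 and 1243, Xcr1 559 and 1579, and Sirpa 1416 and 3797, and Dpp4 and Flt3 were also lower by the size rule. Clec10a was at or below the limit on both arrays. Other markers differed less and were above the limit on both arrays. Itgax, which encodes CD11c, had 1829 with IL-27 and 3371 with vehicle, Zbtb46, a transcription factor of conventional DCs, 340 and 344, and H2-Ab1, an MHC class II chain, 8222 and 8357. Clec9a had 1200 with IL-27 and 1805 with vehicle, and Batf3 210 and 358. Higher values with IL-27 were those of Ccr7 (4858 with IL-27, 3702 with vehicle), H2-Aa (7697 and 7080) and Cd74 (8544 and 8134). Each of these lay above the upper quartile of its nearest genes in level. Of the NK cell markers 2 of 3 at the level minimum were lower, Klrk1 (135 with IL-27, 287 with vehicle) and Klrd1 (269 and 555). Of the B cell markers 1 of 5 was lower, Ms4a1 (202 and 435). With the level trend removed 0 of these NK and B cell markers were 2-fold lower. None of 5 plasmacytoid DC markers, 1 neutrophil marker and 1 T cell marker at the level minimum was lower or higher. Of the 4 measured T cell markers, all were at or below the limit with IL-27 and 3 with vehicle. In bulk RNA, fewer cells of a type and less RNA per cell cannot be told apart. The part of the marker differences in the lysosomal values was not tested.

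Among the 8 members that are cysteine cathepsins, proteases with a cysteine in the active site, only Ctso was past the size rule. The others of the 8 were at most 1.71-fold lower. The 8 genes had a median difference of -0.51, or -0.28 with the level trend removed. Ctso, whose substrates are little known, had an intensity of 203 with IL-27 and 620 with vehicle. It was 3.05-fold lower with IL-27, and it stood at the 73.8th percentile of the IL-27 array and the 88.9th of the vehicle array. The median of its nearest genes in level was -0.54. Ctsc, the dipeptidyl peptidase that activates granule serine proteases, had 1632 with IL-27 and 2784 with vehicle, a difference of -0.77. Ctsl, an endopeptidase that cleaves the invariant chain in thymic epithelium, had 421 and 717, also -0.77. These are 1.71-fold lower each, but Ctsc lay below the lower quartile of its nearest genes (-0.62) and Ctsl did not (-0.81).

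Ctsb, an endopeptidase that also removes dipeptides, had 3143 with IL-27 and 4510 with vehicle, a difference of -0.52. Ctsh, an aminopeptidase, had 1013 and 1423, a difference of -0.49. Both lay within the quartiles of their nearest genes. Ctsz, a carboxypeptidase, had 2898 with IL-27 and 2961 with vehicle, a difference of -0.03 that turned to 0.06 with quantile normalization and 0.13 with the level trend removed. Ctsf, which can process the invariant chain in macrophages, had 93.7 with IL-27 (under the olfactory limit) and 107 with vehicle. Ctsk, the collagen-degrading protease of osteoclasts, was within the olfactory range on both arrays, at 69.5 with IL-27 and 56.0 with vehicle, and no fold is given.

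Of the other proteases, Tpp1 was lower by the size rule, Ctsd and Ctsa were between 1.5-fold and 2-fold lower, and legumain differed little. Tpp1, which removes tripeptides from the ends of proteins, had 579 with IL-27 and 1195 with vehicle, 2.06-fold lower. Its difference of -1.05 became -0.81 with quantile normalization and -0.66 with the level trend removed, short of 2-fold in both. Ctsd, the main aspartic protease of lysosomes, had 1663 with IL-27 and 3005 with vehicle, a difference of -0.85. Ctsa, a carboxypeptidase that also holds β-galactosidase and the sialidase Neu1 in a stable complex, had 1606 and 2704, a difference of -0.75. All 3 lay below the lower quartile of their nearest genes, which was -0.70 for Tpp1, -0.62 for Ctsd and -0.63 for Ctsa. Lgmn, legumain, the asparagine-specific protease that activates other cathepsins, had 2112 with IL-27 and 2492 with vehicle. Its difference of -0.24 was next to the median of its nearest genes, -0.27.

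The enzymes that take sugars and sulfate off glycans, 7 glycosidases and 1 sulfatase, all had lower values with IL-27, as did 70.9% of all genes at the level minimum. Their median of -0.73 became -0.29 with the level trend removed. Glb1, β-galactosidase, had 212 with IL-27 and 573 with vehicle, 2.71-fold lower, and was the 1 of 8 past the size rule. With quantile normalization its difference of -1.44 became -1.12, and with the level trend removed -0.91. Naglu, which removes N-acetylglucosamine from heparan sulfate, had 118 with IL-27 (under the olfactory limit) and 226 with vehicle, at least 1.75-fold lower. Man2b1, the α-mannosidase of lysosomes, had 1594 and 2817, a difference of -0.82. Hexa, a subunit of β-hexosaminidase, had 656 with IL-27 and 1083 with vehicle, a difference of -0.72. Glb1, Naglu, Man2b1 and Hexa lay below the lower quartile of their nearest genes.

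The remaining 4 of these enzymes lay nearer to the genes of their level. Gaa, the glucosidase that degrades glycogen, had 297 with IL-27 and 497 with vehicle, a difference of -0.74 where its nearest genes had a median of -0.55. Neu1, the sialidase, had 191 and 308, a difference of -0.69 beside -0.57. Gusb, β-glucuronidase, had 580 with IL-27 and 848 with vehicle, a difference of -0.55 beside -0.41. Galns, the sulfatase of keratan and chondroitin sulfate, had 146 with IL-27 and 187 with vehicle, a difference of -0.36 beside -0.44. All 4 lay within the quartiles of their nearest genes.

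**Figure D3:**
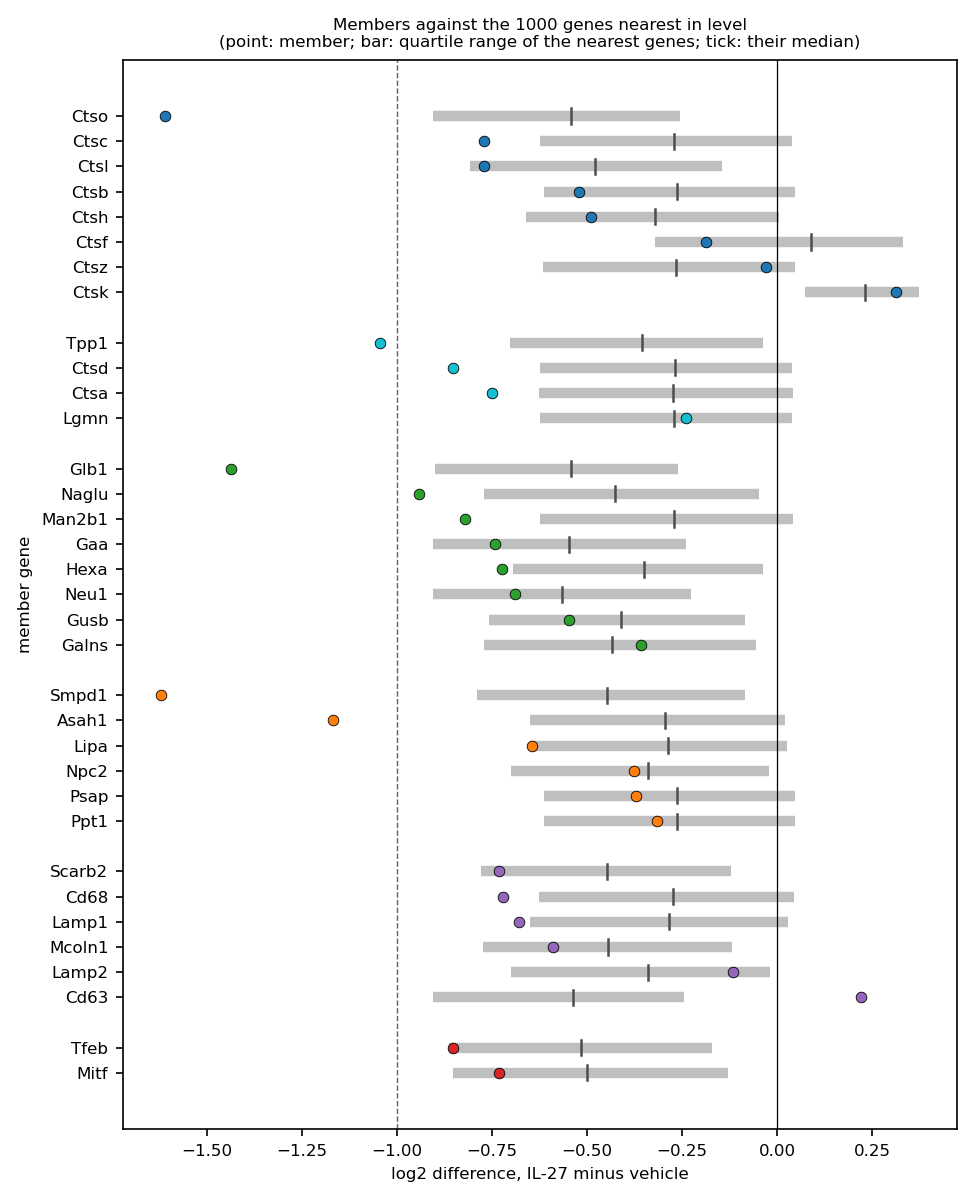
Log2 difference (IL-27 minus vehicle) of each member (points, coloured by role), with the quartile range (grey bar) and median (tick) of the 1000 genes nearest to it in mean level. The dashed line marks 2-fold lower. The points of 13 members lie left of their bar, with Ctso at -1.61 and Smpd1, dim on the IL-27 array, at -1.62 as measured, and that of Cd63 lies right of its bar.

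In the lipid group the enzymes of the sphingomyelin and ceramide step had the most negative differences. Smpd1, acid sphingomyelinase, which makes ceramide from sphingomyelin, had 95.9 with IL-27 (under the olfactory limit) and 295 with vehicle. It was at least 2.28-fold lower. Asah1, acid ceramidase, which splits ceramide in turn, had 990 with IL-27 and 2224 with vehicle, 2.25-fold lower. Its difference of -1.17 stayed 2-fold with quantile normalization (-1.03) and was -0.89 with the level trend removed. These were 2 of 6 genes past the size rule, where all genes at the level minimum had 13.2% lower. Both lay below the lower quartile of their nearest genes, -0.79 for Smpd1 and -0.65 for Asah1.

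The other genes of lipid handling differed less. Lipa, the acid lipase that frees cholesterol and fatty acids from lipoproteins, had 1242 with IL-27 and 1943 with vehicle, a difference of -0.65. Npc2, the soluble carrier that hands cholesterol to the membrane, had 832 and 1080, a difference of -0.38. Psap, the precursor of the saposins that lift sphingolipids for their hydrolases, had 6378 with IL-27 and 8247 with vehicle, a difference of -0.37. Ppt1, which removes palmitate from proteins, had 3200 with IL-27 and 3984 with vehicle, a difference of -0.32. None of these 4 lay below the lower quartile of the genes nearest in level, and the difference of Npc2 was -0.02 with the level trend removed.

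None of the 6 membrane proteins passed the size rule, and 4 of them had more negative differences than Lamp2 and Cd63. Scarb2, which carries β-glucocerebrosidase to the lysosome, had 457 with IL-27 and 759 with vehicle, a difference of -0.73. Cd68, a heavily glycosylated protein of late endosomes much used as a macrophage marker, had 1588 and 2617, a difference of -0.72. Lamp1, a main glycoprotein of the lysosomal membrane, had 1236 with IL-27 and 1978 with vehicle, a difference of -0.68. Its relative Lamp2, which also serves chaperone-mediated autophagy, had 897 with IL-27 and 972 with vehicle. The difference of Lamp2 was -0.12 as deposited, 0.06 with quantile normalization and 0.25 with the level trend removed. Cd68 and Lamp1 lay below the lower quartile of their nearest genes, and Lamp2 was above their median of -0.34.

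Mcoln1, the calcium channel whose opening activates TFEB, had 499 with IL-27 and 750 with vehicle, a difference of -0.59 beside a median of -0.44 among its nearest genes. Cd63, a tetraspanin of late endosomes and secreted vesicles, was the 1 member above the level minimum with a higher value, at 401 with IL-27 and 344 with vehicle. It was 1.16-fold higher as deposited. Genes nearest to it in level had a median of -0.54 and an upper quartile of -0.25, and once the level trend was removed it differed by 0.74, short of 2-fold.

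The transcription factors of lysosomal genes had lower values with IL-27 without passing the size rule. Tfeb had 158 with IL-27 and 285 with vehicle, a difference of -0.85, and Mitf had 150 and 249, a difference of -0.73 by its brighter probe set. The other probe set of Mitf lay at 25.2 with IL-27 and 25.3 with vehicle near the lowest values of the arrays. With the level trend removed the differences were -0.38 for Tfeb and -0.30 for Mitf. The 10 members with CACGTG in the promoter had a median difference of -0.75, and the 8 of them above the olfactory limit on both arrays ranged from -1.44 for Glb1 to -0.24 for Lgmn. The 20 searched members without it had a median of -0.71, and the 18 above the limit ranged from -1.61 for Ctso to 0.22 for Cd63. The ranges overlapped over most of their length, and 1 of 10 genes with the motif and 3 of 20 without it were lower by the size rule. Smpd1 and Ctso, printed above with no capitals, were among those 3 without it. All genes at the level minimum had 13.2% lower, so these counts are near that share and no result about the motif. With the level trend removed the medians were -0.36 with the motif and -0.32 without it.

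Further genes of the lysosome were read from 7 lists. Of the other hydrolases, 13 of 28 at the level minimum were lower by the size rule and 0 higher, 46.4% where all genes had 13.2%. Their median was -0.84 over the 29 measured of 34 listed, or -0.54 with the level trend removed. On that scale 3 of 28 were 2-fold lower (Acp2, Manba and Siae) and 2 were 2-fold higher (Gla and Dpp7), against 5.33% lower and 3.06% higher of all genes at that level. Of the 13, Manba, Siae and Sgsh were dim on the IL-27 array with bounds short of 2-fold. Acp2, an acid phosphatase, had 575 with IL-27 and 1555 with vehicle. Pla2g15, a phospholipase of lysosomes, had 354 and 917. Manba, the β-mannosidase, had 89.2 with IL-27 (under the olfactory limit) and 236 with vehicle, at least 1.82-fold lower, and Siae, a sialic acid esterase, 86.6 and 224, at least 1.73-fold lower. Of the 28 at the level minimum, 25 had a difference below 0, against 70.9% of all genes at that level. Gla, α-galactosidase (754 with IL-27, 476 with vehicle), and Dpp7, a dipeptidyl peptidase (773 and 455), were among the exceptions, named after their values were seen.

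The V-ATPase subunits had a median near 0. Over the 18 measured it was -0.07, and it turned to 0.12 with quantile normalization and 0.25 with the level trend removed. Of 17 subunits at the level minimum 2 were lower, or 11.8% where all genes had 13.2%, 0 were higher and 15 neither. Of the 18, 4 lay below the median of their nearest genes, as did 50.2% of all genes. The 2 lower ones were alternative a subunits of the membrane part of the pump. Atp6v0a1 had 259 with IL-27 and 645 with vehicle. Atp6v0a2 had 307 and 751 by its brighter probe set, while its other probe set had 399 with IL-27 and 317 with vehicle, so its direction is not settled. Tcirg1, another a subunit, had 1279 with IL-27 and 1869 with vehicle, and Atp6ap1, an accessory subunit, 1023 and 1468. The difference in median between hydrolases and pump subunits was not tested, since 1 array per condition allows no test.

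**Figure D4:**
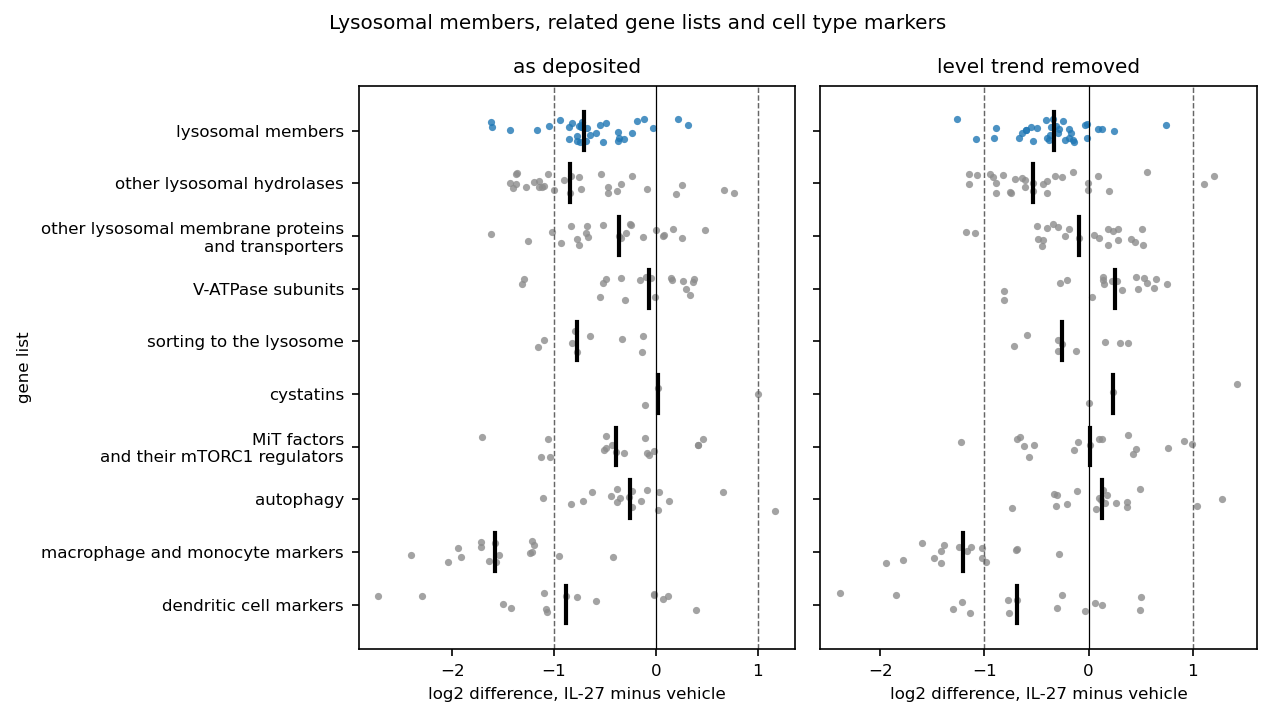
Log2 difference (IL-27 minus vehicle) of each gene in 10 lists, as deposited (left) and with the level trend removed (right). Black bars are medians, dashed lines mark 2-fold, and vertical jitter has no meaning. Medians as deposited run from -1.58 for macrophage and monocyte markers over -0.71 for the lysosomal members to -0.07 for V-ATPase subunits and 0.02 for cystatins.

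Other lysosomal membrane proteins and transporters had a median of -0.36 (-0.09 with the level trend removed), and 3 of 22 were lower, 13.6% where all genes had 13.2%. Slc38a9, an amino acid sensor of the lysosomal membrane, had 178 with IL-27 and 545 with vehicle by its brighter probe set, but 145 and 134 by its other one. Mfsd8 had 76.96 with IL-27 (under the olfactory limit) and 184 with vehicle, at least 1.42-fold lower. Tpcn2, a cation channel, had 252 and 510, and Ostm1, the partner of the chloride exchanger Clcn7, 353 and 672. Genes that sort hydrolases to the lysosome had a median of -0.77 (-0.26 with the level trend removed), and 2 of 9 were lower, or 22.2%, and 0 with the level trend removed. These were Sort1, a sorting receptor, with 400 with IL-27 and 892 with vehicle, and Nagpa, which uncovers the mannose 6-phosphate tag, with 296 and 632. Sumf1, which activates sulfatases, had 243 with IL-27 and 429 with vehicle, and Gnptab, which makes the tag, 334 and 580.

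Inhibitors and regulators differed in both directions. Cystatins block cysteine cathepsins, and none of 3 passed the size rule. Cstb, the cytosolic cystatin, had 918 with IL-27 and 459 with vehicle, just under 2-fold higher. With the level trend removed its log2 difference was 1.43, past 2-fold. Cst3, the secreted one, had 8765 with IL-27 and 8652 with vehicle, and Cst7, which acts on cathepsin C, 156 and 168. Relatives of TFEB, genes of the mTORC1 complex that holds it in the cytosol and regulators of that complex had a median of -0.39. Of 16 at the level minimum 4 were lower, where all genes had 13.2%. Once the level trend was removed the median was 0.01 and only Tfec of the 16 was 2-fold lower. Tfec, a family member found mainly in myeloid cells, had 120 with IL-27 (under the olfactory limit) and 393 with vehicle, at least 3.04-fold lower, whereas Tfe3 had 467 and 503. Rraga, a GTPase that brings mTORC1 to the lysosome, had 125 with IL-27 and 260 with vehicle, at least 2.01-fold lower. Lamtor4 and Lamtor1, of the Ragulator complex that anchors it, had 391 and 188 with IL-27, against 857 and 387 with vehicle. The value of Lamtor1 is that of its brighter probe set, and its other one had 162 with IL-27 and 309 with vehicle, short of 2-fold. Not all moved this way. Lamtor3 of the same complex had 1129 with IL-27 and 848 with vehicle, Rragc 515 and 521, and Flcn 330 and 239. Of the 16 genes of the list at the level minimum 13 had a difference below 0, against 70.9% of all genes at that level.

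Autophagy genes, whose products deliver cytosolic cargo to lysosomes, had a median of -0.25. Of 17 at the level minimum 1 was lower by its measured values and 1 higher, where all genes had 13.2% and 1.52%. Once the level trend was removed the median of the autophagy genes was 0.13. On that scale 0 were 2-fold lower and 2 higher (Sqstm1 and Gabarapl1), where all genes had 5.33% and 3.06%. Sqstm1, the cargo receptor p62, had 6055 with IL-27 and 2688 with vehicle, 2.25-fold higher under the scaling as deposited, and 1.28 on the log2 scale with the level trend removed. Atg5, needed to form autophagosomes, had 117 with IL-27 (under the olfactory limit) and 252 with vehicle, at least 1.95-fold lower. Atg7, which activates the same conjugation, had 177 and 315, and Plekhm1, which tethers late endosomes, 310 and 511. Macrophage and monocyte markers, lower with a median of -1.58, were lower on the same array as Tfec and the 13 hydrolases past the size rule. Their part in these values was not tested.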

How the data were processed

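Expression was measured on 1 array per sample, 2 in all. Per the labels' protocols, material from total RNA was fragmented and biotinylated (Affymetrix WT Terminal Labeling Kit). The authors deposited 1 intensity per probe set on a linear scale, 28815 per array. How these were background-corrected, summarized and normalized is not given in the sources used here. The submitters' processing notes name the build mm8, and no detection call or depth came with the values, so the number of arrays limits the precision.

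GEO's platform annotation named the probe sets: 21780 had 1 gene, 1605 several (not named) and 5430 are unnamed here. All 34 members matched a RefSeq gene ID (GRCm38.p6) under the same symbol. Log2 was taken of the deposited intensities with no pseudocount. The differences, the size rule and the medians were computed with Python 3.11.15, numpy, pandas and statsmodels (lowess, span 0.3). Only the size rule and the removal of the level trend were tried on simulated data, with shifts well past 2-fold or none. No test was run, since each group has 1 sample. The olfactory limit was chosen after the data were seen. Named genes were all members and, per further pathway list, up to 4 at the level minimum with the largest differences in size; others, cell type markers included, were chosen after their values were seen. Members and lists were chosen with earlier results of these data known. Alternatives were quantile normalization, median centring, lowess, an offset of 16, other level filters, averaged probe sets and a 1.5-fold rule.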

Additional observations from a re-analysis of the deposited data

How the results depend on the processing

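No paired analysis was possible because each group has 1 sample. The median of the members, -0.71 as deposited, was -0.45 with quantile normalization, -0.33 with the level trend removed and -0.28 relative to the median of the 1000 nearest genes in level, an alternative chosen after seeing the data. It was below 0 under all alternatives run. The count of lower members, 5 as deposited, was 2 (Ctso and Smpd1) with the level trend removed and 2 relative to the nearest genes. All genes had 5.45% and 5.28% lower there. In both the level minimum was applied after that step, whereas the 5.33% above used the level as deposited. Smpd1 raised to the olfactory limit was -0.83 with the trend at its measured level removed. The count was 4 with quantile normalization (without Tpp1), where 8.17% of all genes were lower. It was also 4 with both arrays required to reach the level minimum (without Smpd1), where 13.2% of all genes were lower. It was 6 with median centring (Naglu added), where 16.8% of all genes were lower, and 21 with the 1.5-fold rule, where 33.7% were. No alternative gave a higher member. Raising intensities to the olfactory limit, also chosen after seeing the data, left 5 members lower, where 9.74% of all genes were lower. Of the single members' values under 5 alternatives, 161 kept their direction and their side of 2-fold, 4 lost the 2-fold call, 1 gained it, and 4, those of Ctsz and Lamp2, turned sign without a call. Averaging probe sets, 1 of the 5, could not change the values of the 33 members with 1 probe set, so those values had to stay the same. What sets the level trend was not tested. Genes dim on the IL-27 array have only a bound.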

Other observations

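A pair of breakdown pathways, picked after their values were seen and therefore given as description only, join members to other hydrolases. Heparan sulfate is taken apart by enzymes that act in sequence, and all 6 measured of 7 listed had lower values with IL-27. By the size rule 4 of 6 were lower. Among all genes at the level minimum 70.9% had a difference below 0 and 13.2% were lower by the size rule. With the level trend removed 0 of 6 were 2-fold lower. Their median was -1.09, or -0.60 with the level trend removed. Hgsnat, the acetyltransferase, had 218 with IL-27 and 528 with vehicle. Ids and Idua, which remove sulfate and iduronic acid, had 273 and 252 with IL-27, against 591 and 525 with vehicle. Sgsh, the sulfamidase, had 102 with IL-27, below the olfactory limit, and 234 with vehicle, at least 1.81-fold lower.

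Of 10 measured genes of sphingolipid breakdown, 3 were lower by the size rule (Smpd1, Glb1 and Asah1), 0 were higher and 9 had a difference below 0. All genes at the level minimum had 13.2% lower, 1.52% higher and 70.9% below 0. With the level trend removed 1 of the 10 was 2-fold lower by its measured values (Smpd1) and 1 was 2-fold higher (Gla). On that scale all genes had 5.33% lower and 3.06% higher. The median of the 10 was -0.73, or -0.35 with the level trend removed. Gla was the exception, with a difference of 0.67 as deposited and 1.11 with the level trend removed. Galc, which acts on galactosylceramide, differed by -0.73, and Arsa, which acts on sulfatide and was under the olfactory limit with IL-27, was at least 1.42-fold lower.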
